A study of Mus musculus with 4 samples.

Results

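The integrated stress response genes were 10 named genes of the 31053 in the count tables, found by matching each gene identifier to its GENCODE M21 symbol. Of these, 5 were set apart as mRNAs known for upstream reading frames (Atf4, Atf5, Ddit3, Ppp1r15a and Ppp1r15b), and the other 5 were Trib3, Asns, Eif2ak2, Eif2ak3 and Eif2ak4. The grouping came from what is known of these mRNAs and the genes were picked by name, with earlier results of these data known. All 10 genes passed the filter on low counts that left 12336 genes for testing. The samples were primary cortical neurons of WT (wild-type) mice, with 2 libraries of RNA crosslinked to and pulled down with the ribosomal protein RPS2 (RPS2 IP, by eCLIP) and 2 libraries of total RNA taken before the pulldown. No stressor is given for either group. The study's methods describe floxuridine in its primary neuron cultures, given against dividing cells, and its part in these values was not tested. The labels mark the RPS2 IP as rRNA-depleted and total RNA as untreated, so an effect of that step and of the pulldown cannot be told apart. The ratio of IP to total RNA for one mRNA was used in the study as a measure of how heavily ribosomes occupy it.

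The integrated stress response begins with kinases that sense different stresses and phosphorylate the translation initiation factor eIF2. Phosphorylated eIF2 blocks its own exchange factor, eIF2B, so that most initiation slows while mRNAs such as Atf4, whose leaders carry short upstream reading frames, are translated more. ATF4 then switches on genes for amino acid supply and, under lasting stress, Ddit3 and Trib3, while the phosphatase subunits encoded by Ppp1r15a and Ppp1r15b return eIF2 to its active form. In neurons the same pathway is studied for its part in memory and neurodegeneration.

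Upstream frames were read from the sequence of the principal transcript of each gene in GENCODE M21 on mm10. Any ATG in the leader was taken to open a frame up to its next stop codon in frame, unless it only extended the main frame. Other start codons were not searched, and no evidence of translation was required. The windows below show the start codons on which the description of Atf4, Atf5, Ddit3 and Ppp1r15b turns. Each runs 5′ to 3′ over 30 bases, and capitals mark the ATG start codon and, where it lies in the window, the stop codon of the same frame.
Atf4, short upstream frame, chr15:80255573-80255602, plus strand: gcggccaccATGgcgtatTAGaggcagcag
Atf4, upstream frame that overlaps the main frame, chr15:80255672-80256222, plus strand, spliced: gcctaagccATGgcgctcttcacgaaatcc
Atf4, main frame, chr15:80256290-80256319, plus strand: ccccacaacATGaccgagatgagcttcctg
Atf5, short upstream frame, chr7:44816517-44816546, minus strand: gcccgcgcaATGgctctgTAGccgcgaccc
Atf5, upstream frame that overlaps the main frame, chr7:44815267-44816415, minus strand, spliced: ttcgccgccATGgagtcctccaccttcgcc
Atf5, main frame, chr7:44815146-44815175, minus strand: gtcacagccATGtcactcctggcgaccctg
Ddit3, first upstream frame, chr10:127290820-127290849, plus strand: gattatatcATGttgaagatgagcgggtgg
Ppp1r15b, first upstream frame, chr1:133131236-133131265, plus strand: gttcggcgaATGacgTGAggcgccgctggg

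In their principal transcripts, Atf4 and Atf5 shared one layout. Each had an upstream frame of 12 bases, which is 3 codons and a stop, followed by a longer frame that ran past the main start codon, of 180 bases in Atf4 and 177 bases in Atf5. Atf4 had a further frame of 111 bases nearer its 5′ end. The frames of Ddit3, Ppp1r15a and Ppp1r15b all ended before the main start. Ddit3 had a frame of 105 bases with a second start codon inside it in the same frame, Ppp1r15a had frames of 138, 105 and 81 bases, and Ppp1r15b had frames of 9, 27 and 156 bases.

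**Figure D1:**
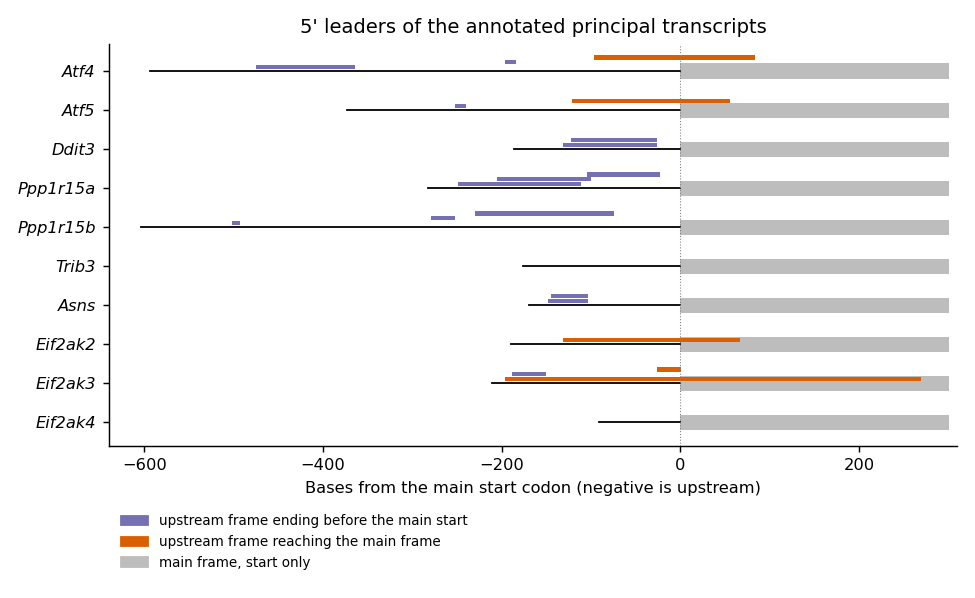
Leaders of the 10 mRNAs, drawn to scale in bases from the main start codon, with upstream frames as coloured bars above the leader and the start of the main frame in grey. Atf4, Atf5, Eif2ak2 and Eif2ak3 have a frame that reaches the main frame, and Trib3 and Eif2ak4 have no upstream frame.

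Upstream frames were not confined to the mRNAs known for them. Of the 19 upstream start codons, 13 lay in those 5 mRNAs, and the other 6 lay in Asns, Eif2ak2 and Eif2ak3. In Ddit3 and in Asns, both start codons opened the same frame. A frame was found in 8 of the 10 genes, and in 51.2% of 12150 tested genes with a coding transcript. Leaders were 594 bases in Atf4 and 604 bases in Ppp1r15b, against a median of 183 bases over those genes. The rest of the 10 genes had leaders of 91 bases (Eif2ak4) to 373 bases (Atf5).

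The Asns frame rests on the annotated start site, as do the Atf5 frames. For Atf5, RefSeq gives the GENCODE start and another start 1000 bases downstream of it. A transcript from the downstream start lacks both Atf5 upstream start codons. Asns encodes asparagine synthetase, whose promoter is a textbook site of ATF4 binding. Its upstream start codons lie 24 and 21 bases upstream of the transcription start that RefSeq gives for the gene on GRCm38.p6, so a transcript that begins there lacks them. The same bases form part of a C/EBP-ATF response element. The core of that element, TGATGNAA with any base at N, was searched on both strands from 250 bases before to 50 bases after each RefSeq start. Of the 9 members with a promoter in the table, 2 held it, Asns and Trib3, as did 1219 of 27025 promoters in all (4.51%). In the windows below, read along the strand of the gene, capitals mark the match.
Asns, chr6:7693214-7693243, minus strand: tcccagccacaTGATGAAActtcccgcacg
Trib3, chr2:152344028-152344057, minus strand: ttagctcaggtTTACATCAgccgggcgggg
In Asns the match covered all 3 bases of the second upstream start codon and 2 bases of the first. In Trib3 it lay from 14 to 21 bases after the RefSeq start and read on the opposite strand. That RefSeq start lies upstream of the GENCODE start of Trib3, and the match falls between them, outside the GENCODE transcript. A fixed list of other transcription factors of the response and ATF4 target genes held the match in 10 of its 26 promoters (38.5%), Atf3 and Chac1 among them. These matches describe the sequence, and binding was not measured.

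Totals were 16460545 and 9941486 counts in RPS2 IP replicates 1 and 2 and 5281196 and 4899718 counts in total RNA replicates 1 and 2. The 10 genes together held 1585 to 5518 counts per library. One gene, Gm42418, took 42.6% and 27.9% of the counts in RPS2 IP replicates 1 and 2. In total RNA replicates 1 and 2 it took 39.8% and 15.3%. Levels below are CPM, counts divided by a library size that TMM scaling corrects for such a share. Summed neuronal markers lay at 4064 to 4591 CPM in the 4 libraries. Astrocyte markers, also present in every library, were at 1870 and 1579 CPM in RPS2 IP and total RNA of replicate 1, against 634 and 606 CPM in replicate 2. Microglial markers were at 84.9 and 88.6 CPM in replicate 1 and at 7.28 and 5.92 CPM in replicate 2, with Cx3cr1, P2ry12 and Aif1 at 0 in at least 1 library. Fewer cells of a type and less RNA per cell cannot be told apart in such bulk samples.

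Levels were compared between genes per kilobase of exon (RPKM, from the same scaled counts). Asns was highest, with a mean over the 4 libraries of 49.3 RPKM (range 29.5 to 68.2), followed by Atf4 at 35.4 RPKM (26.3 to 48.2), and these ranges overlapped. Ppp1r15a (mean 12.5 RPKM), Atf5 (11.5) and Ppp1r15b (11.5) came next, and each of their ranges overlapped with that of its neighbour. Ddit3 at 9.28 RPKM, Eif2ak3 at 6.14 RPKM and Eif2ak4 at 3.33 RPKM each lay below the whole range of the gene ranked before them. Trib3 (2.10 RPKM, range 1.36 to 3.64) overlapped with Eif2ak4, and Eif2ak2 was lowest at 0.284 RPKM (0.0964 to 0.509). Among genes tested, Atf4 stood at percentiles 90.5 and 93.5 of total RNA and Eif2ak2 at percentiles 5.81 and 1.29.

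**Figure D2:**
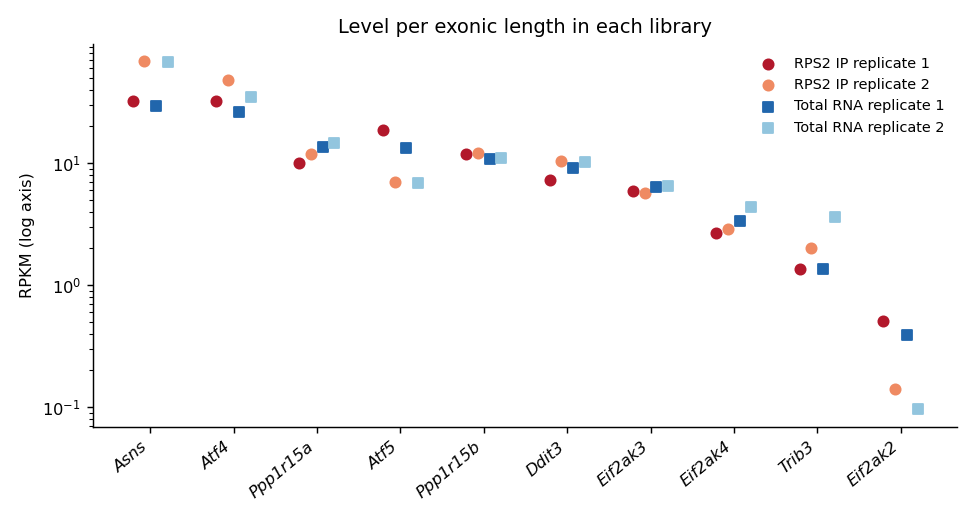
Level of each gene in RPKM on a log axis, with circles for the RPS2 IP libraries and squares for total RNA. Asns and Atf4 are highest and Eif2ak2 lowest in all 4 libraries, and libraries of one replicate number sit together for Asns, Atf5 and Eif2ak2.

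IP was then compared with total RNA to ask how ribosome occupancy of these mRNAs differed from their abundance. Without pairing of libraries, edgeR's quasi-likelihood test called 0 of the 10 genes at an adjusted p of 0.05, and 0% of all genes tested in either direction. An unadjusted p under 0.05 was reached by 0 members and by 349 genes in all, and DESeq2 called 5 genes, none of them a member. Total RNA was taken from the samples before the pulldown, so RPS2 IP and total RNA of one replicate number were read as a pair. A second fit carried the replicate number as a block. Its SEs and p-values rest on a dispersion shared across genes, not on each gene's own spread between pairs. In that fit 1 member was higher in the IP, against 6.63% of genes tested, and 2 members were lower, against 7.55%. Atf4 was the higher one, and Ppp1r15a and Eif2ak4 were the lower ones. Counting libraries alone, both IP libraries lay above both total RNA libraries for 1 member (16.9% of genes tested) and below both for 3 members (14.9%). With 10 genes these shares are counts of a few genes each, and no test was run over the list.

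Atf4 encodes the transcription factor at the centre of the response (ENSMUSG00000042406, mm10 chromosome 15, 80255184 to 80257541). It measured 75.5 and 114 CPM in RPS2 IP replicates 1 and 2, and 61.9 and 82.8 CPM in total RNA replicates 1 and 2. The IP library was higher within each replicate number, although the groups overlapped. The log2 ratio of IP to total RNA was 0.29 in pair 1 (95% counting interval 0.095 to 0.48) and 0.46 in pair 2 (0.31 to 0.61). Without the block the log2 fold change was 0.38 ± 0.29 (SE; edgeR adjusted p = 1.0), and it ran from 0.055 without RPS2 IP replicate 2 to 0.65 without RPS2 IP replicate 1. Leaving out total RNA replicate 1 gave 0.19 and leaving out total RNA replicate 2 gave 0.61. With the block it was 0.38 ± 0.11 (edgeR adjusted p = 0.00879), a 1.30-fold higher level in the IP. The call was made in 4 of the 6 fits with a block and was lost with DESeq2 (adjusted p = 0.161) and with scaling by library size only in edgeR (adjusted p = 0.187).

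Atf5 encodes a relative of ATF4 that is translated by the same kind of leader. It measured 37.2 and 13.8 CPM in the RPS2 IP and 26.7 and 13.8 CPM in total RNA. Both libraries of replicate 1 were above both of replicate 2, and the groups overlapped. The log2 ratio was 0.48 in pair 1 (0.19 to 0.78) and 0.0025 in pair 2 (-0.39 to 0.40), with intervals that overlapped. The blocked log2 fold change was 0.28 ± 0.16 (edgeR adjusted p = 0.286). Without the block, leaving out RPS2 IP replicate 1 turned the value from 0.34 to -0.55, and leaving out total RNA replicate 2 turned it to -0.067.

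Ddit3 encodes CHOP, a transcription factor of lasting stress. It measured 12.4 and 18.0 CPM in the RPS2 IP and 15.6 and 17.6 CPM in total RNA, and the groups overlapped. Ratios were -0.33 in pair 1 (-0.74 to 0.096) and 0.030 in pair 2 (-0.32 to 0.38) on the log2 scale. The blocked log2 fold change was -0.13 ± 0.19 (edgeR adjusted p = 0.721; 95% interval -0.51 to 0.25), and without the block leaving out RPS2 IP replicate 1 turned -0.13 into 0.11.

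The counted exons of Ddit3 leave out its own upstream frame. A second identifier with the same symbol (ENSMUSG00000116429) spans 105 bases, all of which lie in Ddit3 exons on the same strand and coincide base for base with the first Ddit3 upstream frame, whose start codon is printed above. Reads lying in both genes were not counted, and this second identifier had 0 counts in all 4 libraries, a 0 that follows from how reads were assigned and sets no limit on ribosomes there. The frame makes up 6.13% of the Ddit3 exonic bases and 11.8% of the 890-base principal transcript. The Ddit3 ratio therefore describes the rest of the mRNA, while its RPKM was divided by all its exonic bases, the uncounted ones included. The count tables hold 1 value per gene, so ribosomes on an upstream frame and on the main frame of the other members cannot be told apart either.

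Ppp1r15a and Ppp1r15b encode GADD34 and CReP, the inducible and the constitutive subunits that bring the phosphatase PP1 to eIF2. Ppp1r15a measured 29.5 and 34.7 CPM in the RPS2 IP and 39.6 and 43.2 CPM in total RNA. Both IP libraries were lower than both total RNA libraries. Its log2 ratio was -0.43 in pair 1 (-0.68 to -0.16) and -0.32 in pair 2 (-0.55 to -0.087), and the blocked log2 fold change was -0.37 ± 0.13 (edgeR adjusted p = 0.0431), a level 1.29-fold lower in the IP. This call was close to the threshold and was made in 2 of the 6 blocked fits. It was lost with limma-voom (adjusted p = 0.0602), with no filter on low counts (0.111), with an offset for GC content and length (0.151) and with DESeq2 (0.279).

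Ppp1r15b lay on the other side of total RNA. It measured 67.0 and 67.9 CPM in the RPS2 IP and 60.1 and 61.3 CPM in total RNA, so both IP libraries were higher, with the smallest fold difference between replicates in each group among the 10 genes. The blocked log2 fold change was 0.15 ± 0.12 (edgeR adjusted p = 0.433; 95% interval -0.075 to 0.38). Set against each other within a library, where scaling cancels, Ppp1r15b had 2.27 and 1.96 times the counts of Ppp1r15a in the RPS2 IP and 1.52 and 1.42 times in total RNA. The difference in log2 ratio was 0.52 (0.58 in pair 1 and 0.47 in pair 2). An exact permutation test over the 4 libraries, which ignored the pairing, gave a two-sided p of 0.333. That is the smallest p this design allows, so the test could not have called a difference. The same ratio of Atf4 to Atf5 was 2.03 and 8.21 in the RPS2 IP and 2.32 and 6.0 in total RNA, and its log2 difference of 0.13 came from pairs of opposite sign, -0.19 and 0.45 (exact permutation p = 1.0, two-sided). Both pairs of genes were set side by side after their values were known. Of the Ppp1r15b principal transcript, 13.1% was shared with 13 other genes, and none of that of Ppp1r15a, so the level of Ppp1r15b is less certain.

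Among the downstream targets, Asns measured 88.8 and 187 CPM in the RPS2 IP and 80.6 and 183 CPM in total RNA. Replicate 2 was higher in both kinds of library, and IP and total RNA of one replicate number lay close together. Log2 ratios were 0.14 in pair 1 (-0.030 to 0.31) and 0.025 in pair 2 (-0.080 to 0.13). The blocked log2 fold change was 0.078 ± 0.10 (edgeR adjusted p = 0.696), with a 95% interval of -0.13 to 0.28. Its direction was not fixed, since scaling by library size only gave -0.063 without the block and -0.0075 with it, and leaving out RPS2 IP replicate 2 or total RNA replicate 1 gave -0.58 and -0.41 without the block.

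Trib3 encodes a pseudokinase that is induced by ATF4 and CHOP and restrains ATF4. It measured 2.89 and 4.31 CPM in the RPS2 IP and 2.89 and 7.73 CPM in total RNA, from 13 to 48 counts per library. Total RNA replicate 2 stood above the other 3 libraries. Log2 ratios were -0.0018 in pair 1 (-0.93 to 1.03) and -0.84 in pair 2 (-1.45 to -0.23), and the blocked log2 fold change was -0.51 ± 0.37 (edgeR adjusted p = 0.398). Without the block, leaving out total RNA replicate 2 turned -0.58 into 0.31.

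The 3 kinases among the members sense different stresses. Eif2ak4 encodes GCN2, which senses uncharged tRNA and stalled ribosomes. It measured 19.9 and 21.5 CPM in the RPS2 IP and 25.2 and 32.7 CPM in total RNA, with both IP libraries lower than both total RNA libraries. Log2 ratios were -0.34 in pair 1 (-0.66 to -0.011) and -0.61 in pair 2 (-0.89 to -0.33). The blocked log2 fold change was -0.48 ± 0.16 (edgeR adjusted p = 0.0187), a level 1.40-fold lower in the IP. The call was made in 4 of the 6 blocked fits, was lost once GC content and exonic length entered as an offset (edgeR adjusted p = 0.0881), and had no adjusted p in DESeq2.

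Eif2ak3 encodes PERK, the sensor in the endoplasmic reticulum membrane. It measured 35.8 and 34.6 CPM in the RPS2 IP and 38.3 and 39.3 CPM in total RNA, again with both IP libraries lower. The blocked log2 fold change of -0.14 ± 0.13 did not pass (edgeR adjusted p = 0.550; 95% interval -0.40 to 0.12). Of its principal transcript, 10.8% was shared with the gene Gm43292 at 90% identity or more, and reads that align to both were not counted.

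Eif2ak2 encodes PKR, which binds double-stranded RNA. It was close to the limit of detection, with 36 and 8 counts in the RPS2 IP and 9 and 3 counts in total RNA. Log2 ratios were 0.38 in pair 1 (-0.70 to 1.62) and 0.54 in pair 2 (-1.52 to 3.09), so a difference in either direction was not detectable at this depth. Of its principal transcript, 20.5% was shared with 55 other genes, which makes its value uncertain. Both libraries of replicate 1 were above both of replicate 2, and without the block leaving out total RNA replicate 2 turned 0.48 into -0.26.

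**Figure D3:**
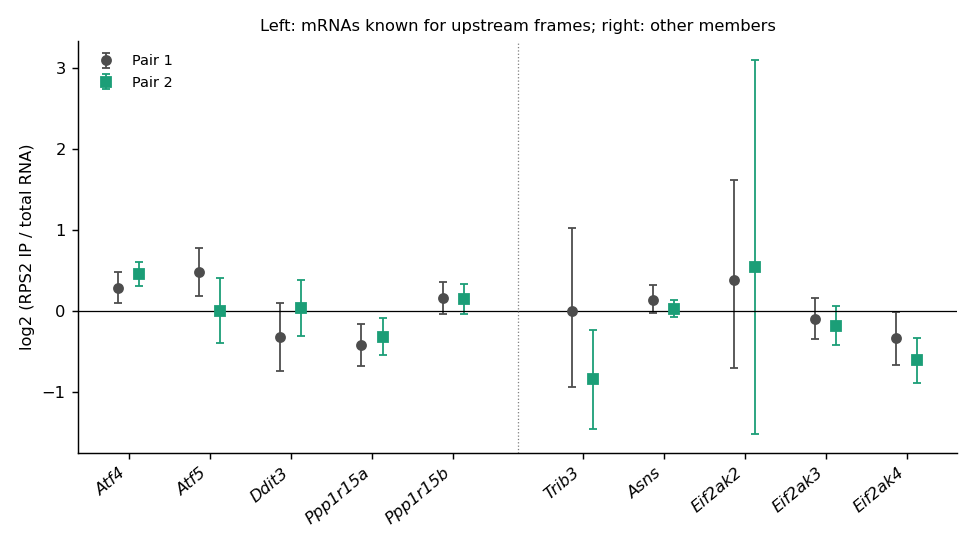
Log2 ratio of RPS2 IP to total RNA within each pair, with bars for the 95% counting interval and the mRNAs known for upstream frames left of the dotted line. Both intervals lie above 0 for Atf4 and below 0 for Ppp1r15a and Eif2ak4, and the widest intervals belong to Eif2ak2.

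The mRNAs known for upstream frames were set against the other members. The median log2 ratio of the first 5 was 0.16 in pair 1 and 0.030 in pair 2, and that of the other 5 was -0.0017 in pair 1 and -0.18 in pair 2. Medians of the 2 groups differed by 0.16 and 0.21 in the pairs, and by 0.29 when each gene's ratio was first averaged over both pairs. The members within a group ranged more widely than that, from -0.37 (Ppp1r15a) to 0.38 (Atf4) for the blocked log2 fold changes of the first 5. Leaving out total RNA replicate 2 took the difference to 0.061, and leaving out total RNA replicate 1 took it to 0.65. Splitting the 10 genes by whether a frame was found set 8 genes against Trib3 and Eif2ak4 alone and gave 0.55. That split was chosen after the values were seen. Over all genes tested, the 6224 with an upstream frame had a median blocked log2 fold change of -0.0022. Of these, 5.90% were higher and 8.42% lower in the IP. The 5926 without one had a median of 0.025, with 7.42% higher and 6.53% lower.

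The widest differences among the members lay between replicate numbers. Asns was 2.10-fold higher in replicate 2 than in replicate 1 in the RPS2 IP and 2.27-fold higher in total RNA. Atf4 was higher in replicate 2 by 0.59 and 0.42 on the log2 scale, and Trib3 was 1.49-fold and 2.67-fold higher. Atf5 and Eif2ak2 went the other way, Atf5 by 2.69-fold in the IP and 1.94-fold in total RNA and Eif2ak2 by 3.62-fold and 4.06-fold. Ppp1r15b differed by 1.01-fold and 1.02-fold only. Together 7 members were higher in both libraries of replicate 2, and 37.4% of genes tested were. The list of other transcription factors and ATF4 target genes had 18 of 28 genes (64.3%) higher in both. Among lists not drawn up as ATF4 targets, eIF2, eIF2B and their regulators had 7 of 10 (70%). Kinase and phosphatase partners had 6 of 10 (60%). Whether those lists hold ATF4 targets was not tested. Other mRNAs known for upstream frames had 5 of 10 (50%), and other branches of the unfolded protein response 8 of 18 (44.4%). All 6 astrocyte markers and all 6 microglial markers were higher in both libraries of replicate 1, and the part of those cells in the values of these genes was not tested. The 2 replicate numbers carry no label that sets them apart, so these are differences between samples of one kind.

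**Figure D4:**
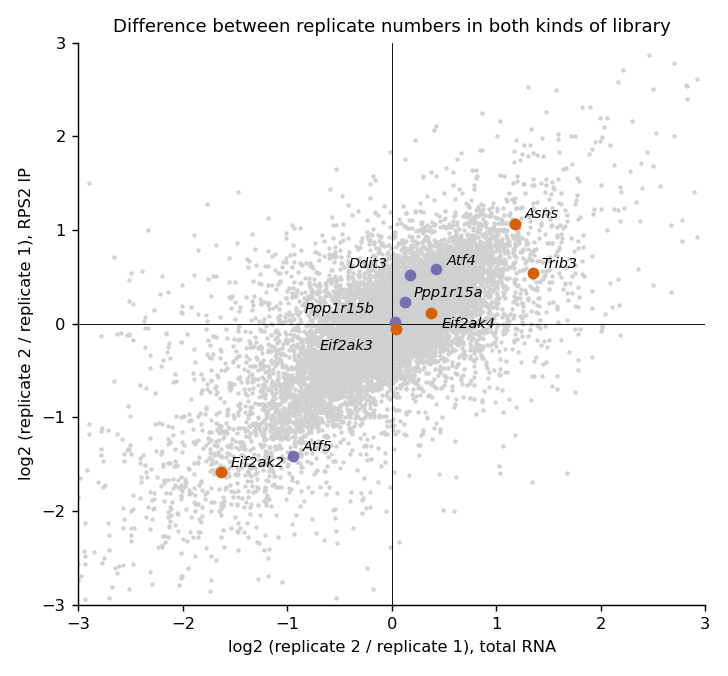
Log2 ratio of replicate 2 to replicate 1 in total RNA against the same ratio in the RPS2 IP, with genes tested in grey, mRNAs known for upstream frames in purple and other members in orange. Asns and Trib3 lie to the upper right, Atf5 and Eif2ak2 to the lower left and Ppp1r15b near 0, and 121 grey genes lie outside the axes.

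The rest of the pathway was read from 5 fixed lists. Of 76 listed genes tested, 8 were higher in the IP (10.5%, against 6.63% of all genes tested) and 6 lower (7.89%, against 7.55%) in the blocked fit. These shares are the background for each list below. The 14 calls fell to 2 with blocked DESeq2, those of Gcn1l1 and Ppp1cb, and to 6 with library size only and 6 with the GC and length offset. The unblocked edgeR fit called 0 of them, with 3 at an unadjusted p under 0.05 and 0 called by DESeq2. In the list of eIF2, eIF2B and their regulators, 1 of 10 genes was higher and 0 were lower, with a median log2 fold change of -0.034 against 0.011 over all genes. That gene was Eif2s1, which encodes the alpha subunit that the kinases phosphorylate. It measured 10.6 and 15.4 CPM in the RPS2 IP and 6.90 and 9.37 CPM in total RNA, and its blocked log2 fold change was 0.67 ± 0.24 (edgeR adjusted p = 0.0417), a call made in 2 of the 6 blocked fits.

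Among 10 partners of the kinases and phosphatases, 2 were higher and 1 lower, with a median of 0.21. Gcn1l1, whose product carries the signal of stalled ribosomes to GCN2, measured 323 and 277 CPM in the RPS2 IP and 460 and 433 CPM in total RNA, and its log2 fold change was -0.58 ± 0.098 (edgeR adjusted p = 4.52e-07). That call was made in 5 of the 6 blocked fits, and with the GC and length offset the value was -0.12 (adjusted p = 0.544). Impact, an inhibitor of GCN2 in neurons, was higher in the IP by a log2 fold change of 0.39 ± 0.13 (adjusted p = 0.0235), and Ppp1cb, a catalytic subunit of PP1, by 0.74 ± 0.13 (adjusted p = 6.07e-07). Of the 6 blocked fits, 3 called Impact and 6 called Ppp1cb. Eif2ak1, the haem-regulated kinase that completes the kinase family in mammals, stood at -0.0072 ± 0.13 (adjusted p = 0.984).

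Of 28 transcription factors and ATF4 target genes tested, 3 were higher and 2 lower, and the median was -0.017. The higher ones were Slc7a11, the cystine transporter, at 0.98 ± 0.30 (edgeR adjusted p = 0.0127), Slc38a2, a neutral amino acid transporter, at 0.45 ± 0.12 (0.00365) and Psat1, of serine synthesis, at 0.36 ± 0.12 (0.0193). The lower ones were the transcription factors Cebpb at -0.49 ± 0.13 (adjusted p = 0.0031) and Jdp2 at -0.44 ± 0.14 (0.0144). The blocked fits that made these calls numbered 5 of 6 for Slc7a11 and Jdp2, 4 for Slc38a2 and Cebpb and 3 for Psat1. Atf3 and Chac1, both targets of ATF4, stood at 0.018 ± 0.25 (adjusted p = 0.977) and 0.012 ± 0.17 (0.978).

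Other mRNAs known for upstream reading frames moved in both directions, with 1 higher, 2 lower and a median of 0.037 over 10 genes. Slc35a4 was higher at 0.50 ± 0.14 (edgeR adjusted p = 0.00486) and Eprs was lower at -0.27 ± 0.099 (0.0461), calls made in 4 and 2 of the 6 blocked fits. Eif5 was lower, at 45.3 and 41.9 CPM in the RPS2 IP against 326 and 83.7 CPM in total RNA, and its counted exons hold the small nucleolar RNA Snora28. The Eif5 call was made in 5 of the 6 blocked fits. No annotated small RNA lay in the counted exons of the 10 members. In the other branches of the unfolded protein response, Canx, an endoplasmic reticulum chaperone, was higher at 0.27 ± 0.099 (adjusted p = 0.0414) and Atf6b lower at -0.30 ± 0.10 (0.0341) among 18 genes, with a median of 0.11, and Hspa5, the chaperone BiP, stood at 0.19 ± 0.099 (0.213). Canx and Atf6b were each called in 2 of the 6 blocked fits.

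**Figure D5:**
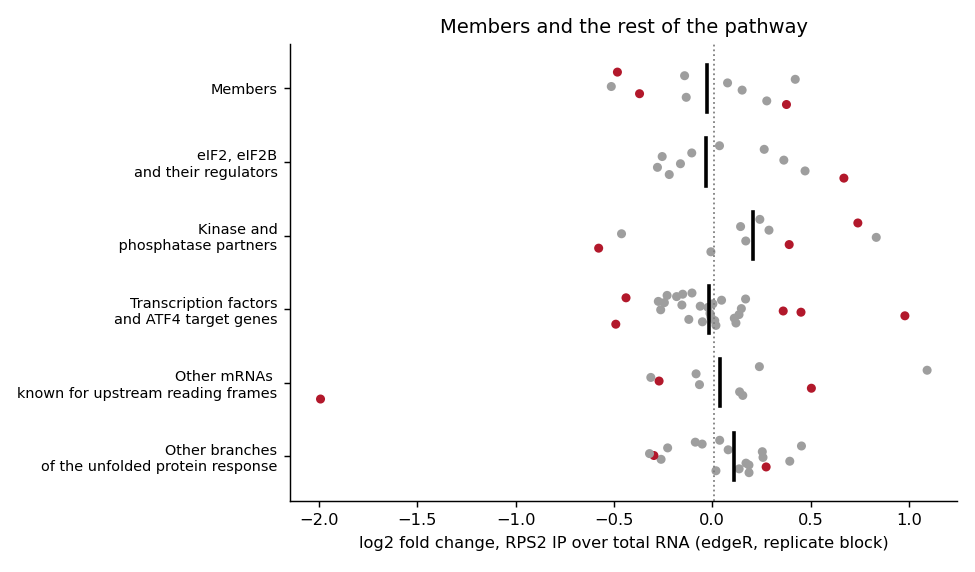
Blocked edgeR log2 fold change of RPS2 IP over total RNA for the members and the 5 lists, with 1 point per gene tested, red where the adjusted p is under 0.05, a black bar at each median and a dotted line at the median of all genes (0.011). List medians lie between -0.034 and 0.21, and Eif5 is the point at -1.99.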

How the data were processed

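RPS2 eCLIP and total RNA libraries of mouse primary cortical neurons were analysed. The deposited values are raw counts of reads, not normalized, given beside the exonic length of each gene. FeatureCounts 1.5.3 was run by the authors in stranded mode, per the file headers, against an mm10 annotation, without the options that count reads at several loci or in several genes, after trimming with cutadapt and end-to-end alignment with STAR. PCR duplicate removal is not mentioned, and intervals therefore cover counting error only.

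The main test was the two-sided quasi-likelihood test of edgeR 4.0.16 in R 4.3.3, after filterByExpr and TMM scaling. Its p-values were adjusted by Benjamini-Hochberg across the 12336 genes kept, at a threshold of 0.05. CPM are counts over the TMM-scaled library size, and RPKM divide these by exonic length. Group medians used log2 CPM with a prior count of 2. Ratios of single pairs are given with exact binomial (Clopper-Pearson) intervals at 95%. Alternatives used limma 3.58.1 (voom) and DESeq2 1.42.0, and shared sequence of at least 50 bases at 90% identity was sought with blastn 2.17.0. Figures were drawn with matplotlib 3.10.9.

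Total RNA was taken from the samples before the pulldown, per the study's methods, so same-numbered libraries were read as paired. Across genes, same-numbered libraries deviated together from their group means (Pearson r = 0.733). The blocked edgeR fit has 1 residual degree of freedom, and its estimated prior degrees of freedom were infinite. Its SEs and p-values therefore rest on a dispersion trend shared by all genes, not on how a gene's own pairs differ. Eif5, for instance, had log2 ratios of -2.84 in pair 1 and -0.995 in pair 2, with an SE of 0.11. The labels do not say whether replicates came from separate cultures or animals, so p-values without the block measure the spread between these libraries only.

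A symbol was found for 30934 of 31053 identifiers. Where 2 identifiers carried one symbol, the longer was used. Transcripts were those of GENCODE M21 (mm10), and promoter windows those of RefSeq on GRCm38.p6. The members, the pathway lists and the cell type markers were chosen with earlier results of these data known. The rule for named genes took all members, every gene of a list called in either fit (at most 6 per list), and Eif2ak1, Atf3, Hspa5 and Chac1. Of 78 listed symbols, 1 was not in the counts and 1, Fgf21, missed the filter.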

Additional observations from a re-analysis of the deposited data

How the results depend on the processing

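The largest change came from the replicate block. Against 0 genes higher and 0 lower in edgeR without it, the replicate block gave 818 higher and 931 lower. Combined with DESeq2 it gave 158 and 382, with limma-voom 685 and 927, with library size only 283 and 878, with no low-count filter 769 and 699, and with GC content and length as an offset 650 and 253. In unblocked fits, 14 genes were lower with no low-count filter, 5 with DESeq2, and 1 to 8 with single libraries left out. Calls among the 10 members were 3 with the block, 2 with limma-voom, 2 with library size only, 2 with no filter and 1 with the GC and length offset, all blocked, and 0 with blocked DESeq2, in which 5 members had no adjusted p. Among the pathway lists they were 14 with the block, 2 with DESeq2, 13 with limma-voom, 6 with library size only, 11 with no filter and 6 with the offset, and 1 with no filter and no block. The cause of these shifts was not tested.

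The difference between the mRNAs known for upstream frames and the other members was 0.29, and 0.16 as a difference of means, 0.16 in pair 1 alone and 0.21 in pair 2 alone under the replicate block. It ranged from 0.061 to 0.65 with single libraries left out, and was 0.55 when split by whether an upstream frame was found. Asns turned from 0.059 to -0.063 with library size only, -0.0075 with the block and library size only, and -0.032 with the block and the offset. Without the block, leaving out single libraries gave log2 fold changes of -0.55 to 0.89 for Atf5, -0.42 to 0.11 for Ddit3, -1.10 to 0.31 for Trib3, -0.58 to 0.77 for Asns and -0.26 to 1.74 for Eif2ak2, and these 5 genes changed sign. Eif2ak2 had no value without RPS2 IP replicate 1, where it missed the count filter, so its range leaves that fit out. Atf4 (0.055 to 0.65), Ppp1r15a (-0.50 to -0.26), Ppp1r15b (0.14 to 0.16), Eif2ak3 (-0.17 to -0.12) and Eif2ak4 (-0.66 to -0.29) kept their sign. With the block no library could be left out of a test, since the other pair alone leaves no residual degrees of freedom. Depth limits Eif2ak2 and Trib3 most.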
